A study of Sus scrofa with 9 samples.

Results

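The 5 miRNAs miR-202, miR-224, miR-383, miR-143 and miR-145, all known from cells of the ovarian follicle, were followed in small RNA libraries of pig (Sus scrofa) metaphase II (MII) oocytes, pronuclear (PN) embryos and sperm. Members were all entries of the count table whose name, without its species prefix, was one of these 5 miRNAs. The search covered every arm and every end variant. It found 6 of the 1313 names in the table. Each name stood on 1 row, and 0 other names shared a row of counts with them. Among them, 2 names were the 5p and 3p arms of miR-202. The other miRNAs had 1 name each. The name of miR-383 carried the dog prefix (cfa) and the rest carried the pig prefix (ssc). Suffixes such as R+1 are variant marks whose meaning the sources used here did not give.

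Each group had 3 libraries, and all 9 were labelled as untreated. Below, oocytes are MII oocytes and embryos are PN embryos. MII oocytes are mature unfertilized eggs. Here they came from follicles of gilts over 8 months old, of a breed given as Long White. They were matured in vitro for 42 to 44 h and stripped of cumulus cells with hyaluronidase and vortexing. PN embryos are fertilized eggs whose parental genomes still lie apart. They were collected 18 h after in vitro fertilization began, with semen of Landrace boars, whereas the sequenced sperm came from Large White boars; both sets of boars were 2 to 3 years old. Eggs and embryos were pooled for RNA. Nothing in the sources used here says that libraries of a group came from separate collections, so p-values measure the spread between libraries, which may be technical.

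A miRNA is cut from a hairpin precursor, and one strand of the hairpin is loaded into an Argonaute protein, where it guides silencing of mRNAs. Usually the other strand, from the opposite arm, is degraded. In the ovary, miRNAs made by granulosa and cumulus cells take part in the control of growth, steroid synthesis and survival around the oocyte. The oocyte also holds miRNAs of its own, and mature sperm carry miRNAs left from the testis and taken up in the epididymis.

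In Sscrofa11.1, the build named in the submitters' notes, the RefSeq gene table placed MIR202 at chr14:141207134-141207213, overlapping no other gene. MIR224 lay at chrX:123283427-123283507, within the span of GABRE, a GABA receptor subunit gene. MIR383 lay at chr17:2698041-2698122, within the span of SGCZ, a sarcoglycan gene. MIR143 at chr2:150578738-150578817 and MIR145 at chr2:150580126-150580211 were separated by 1308 bases and both lay within the span of IL17B. The table gives whole gene spans, so exonic or intronic position was not assigned. These are the places of the named genes and were not read from the counts.

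Library totals ran from 289183 to 381674 for MII oocytes, from 422630 to 771001 for PN embryos and from 1640492 to 2455102 for sperm. Depth did not overlap between groups, so depth and group cannot be told apart. Levels are given as CPM, the count divided by the library total and scaled to 1000000. CPM is a share of the library, so fewer cells holding a miRNA and less of it per cell cannot be told apart. The smallest value above 0 among the members was 5 reads. The whole table held 0 values equal to 1, 132 other whole values under 5 and 435 equal to 5, so it shows no single floor. A listed 0 of a member was treated, as a cautious choice, as anything up to 5 reads, which is 13.1 to 17.3 CPM in oocytes, 6.49 to 11.8 CPM in embryos and 2.04 to 3.05 CPM in sperm. The labels were checked with 4 male germ line miRNAs (miR-34b, miR-34c, miR-449a and miR-449b). These summed to between 151499 and 153743 CPM in sperm, between 2036 and 2099 CPM in oocytes and between 2250 and 2455 CPM in embryos. miR-371, of the early embryo, was at 1183 ± 98.9 CPM in oocytes and 1157 ± 84.0 CPM in embryos (SD, n = 3). No sperm library listed it. Of the other 4 early embryo miRNAs checked, miR-302 was listed in PN embryos alone, and miR-372, miR-373 and miR-367 were listed nowhere.

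The members divided into a pair of patterns. Those of miR-202, miR-224, miR-143 and miR-145 were lower in sperm than in eggs and embryos, and miR-383 was higher. The 6 names together held 0.0851% to 0.136% of the counts of MII oocytes, 0.107% to 0.117% of those of PN embryos and 0.0703% to 0.0772% of those of sperm. Within that sum, ssc-miR-202-5p took 49.2% to 71.4% of the reads of MII oocytes and 53.9% to 61.9% of those of PN embryos, but 1.39% to 3.37% of those of sperm. The share of cfa-miR-383 was 6.20% to 13.0% for MII oocytes and 9.69% to 11.2% for PN embryos, against 90.8% to 94.6% for sperm.

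**Figure D1:**
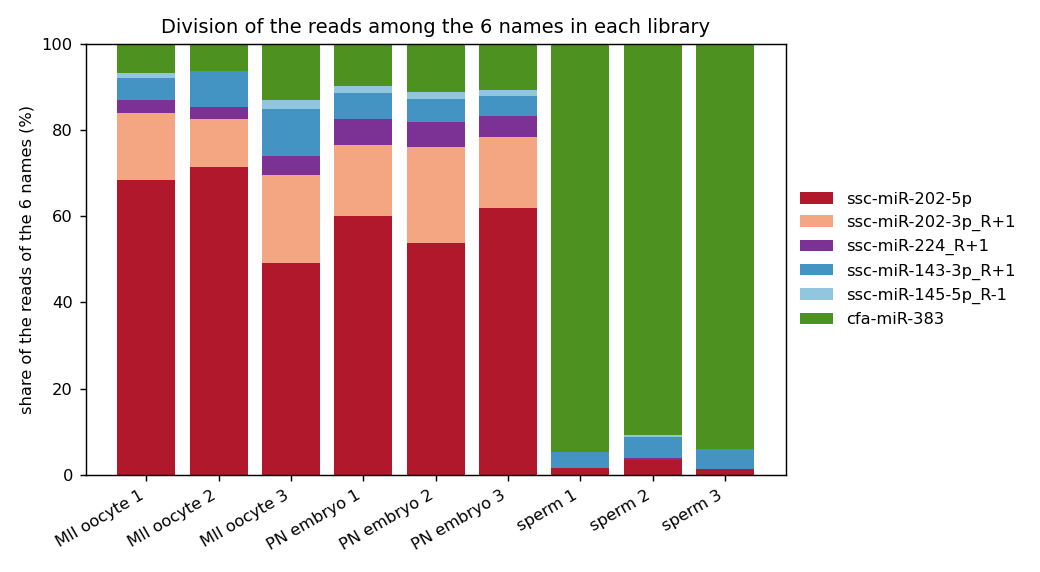
Share of the reads of the 6 names (vertical axis, percent) held by each name in each of the 9 libraries (horizontal axis); stacked bars sum to 100. ssc-miR-202-5p takes the largest part in every MII oocyte and PN embryo library, and cfa-miR-383 takes from 90.8% to 94.6% in sperm.

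All 6 names passed the filter on low counts and were tested among 587 names with the edgeR quasi-likelihood test. A name was called if its Benjamini-Hochberg adjusted p (q) was under 0.05 and its level differed by 2-fold or more, a log2 fold change beyond 1 in either direction. cfa-miR-383 and ssc-miR-143-3p_R+1 passed the filter level of 14.4 CPM in all 9 libraries. ssc-miR-202-3p_R+1 and ssc-miR-224_R+1 passed it in every MII oocyte and PN embryo library and in 0 sperm libraries, and ssc-miR-145-5p_R-1 in 2 MII oocyte and 2 PN embryo libraries. ssc-miR-202-5p passed it in every MII oocyte and PN embryo library and in 1 sperm library. These 4 names were therefore tested on account of the groups where they were high, which limits what their tests against sperm add.

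**Figure D2:**
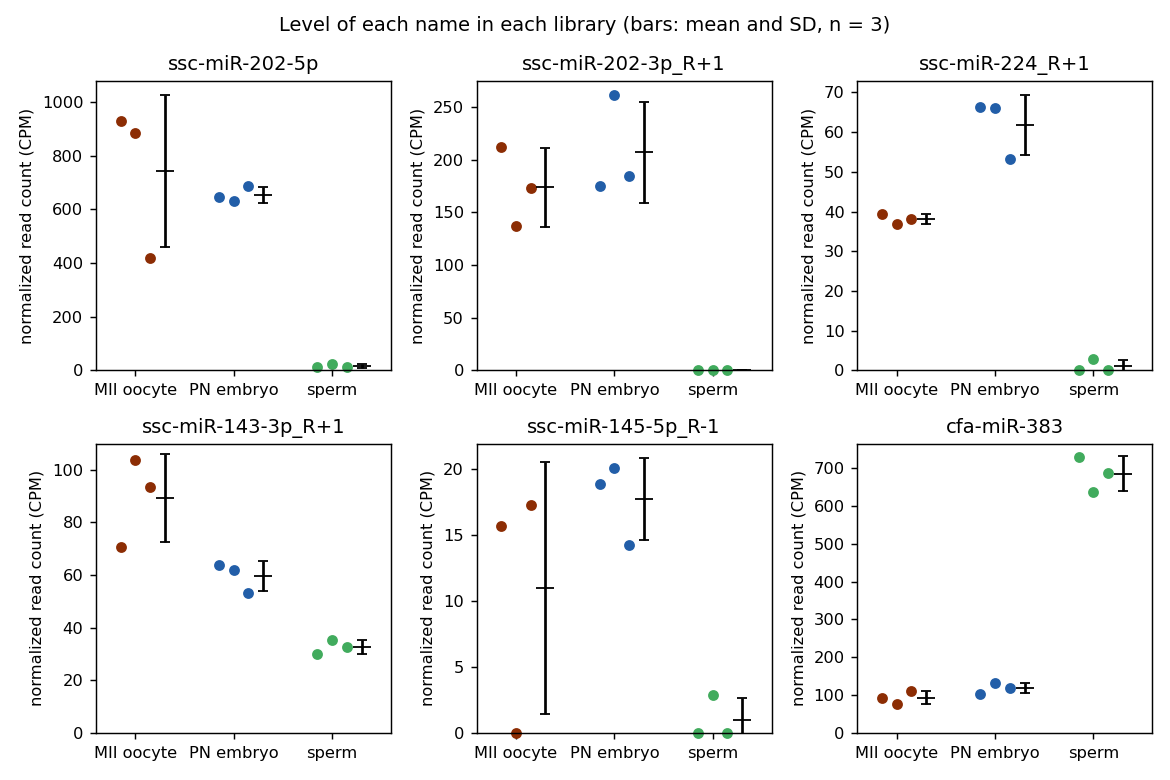
Normalized read count (CPM, vertical axes, each from 0) of the 6 names in the 3 libraries of each group; points are libraries, and bars are the mean and SD (n = 3). Sperm is the lowest group for 5 names and the highest for cfa-miR-383, at 638 to 731 CPM.

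miR-202 is a miRNA of the gonads, found in ovary and testis of many vertebrates. ssc-miR-202-5p had 355, 265 and 121 reads in MII oocyte libraries 1, 2 and 3, which is 930, 886 and 418 CPM. It had 646, 631 and 689 CPM in embryos and 11.6, 23.7 and 10.2 CPM in sperm, on 19, 41 and 25 reads. The PN embryo values lay within the range of the MII oocyte values, where library 3 stood well below libraries 1 and 2, and sperm overlapped neither group. Among all names it ranked 88 by mean CPM in oocytes, 98 in PN embryos and 389 in sperm.

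The 3p arm, ssc-miR-202-3p_R+1, had 212, 137 and 173 CPM in oocytes and 175, 262 and 184 CPM in embryos. It was listed at 0 in all 3 sperm libraries. MII oocytes and PN embryos overlapped for this arm as well. Set against 5 reads per library, it was at least 65.5-fold lower in sperm than in MII oocytes and at least 77.9-fold lower than in PN embryos. The fit with zeros as listed gave edgeR q = 2.46e-07 and 1.37e-07. With the members' zeros set to 5 reads, the log2 fold changes were -5.93 and -6.10 (edgeR q = 1.52e-08 and 6.84e-09). Every sperm library then held 5 reads, so these q values rest on filled counts without spread and add no support. The name passed the filter level in 0 sperm libraries, which limits what either fit adds.

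Because both arms come from one hairpin, their ratio within a library does not depend on normalization. The 5p arm made up 81.4%, 86.6% and 70.8% of miR-202 reads in MII oocyte libraries 1, 2 and 3. Exact (Clopper-Pearson) 95% intervals, which cover counting error only, were 77.4% to 85.0%, 82.3% to 90.2% and 63.3% to 77.5%. The interval of library 3 did not reach that of library 2. In PN embryos the share was 78.7%, 70.7% and 78.9%. The group means were 79.6 ± 8.08% and 76.1 ± 4.68% (SD, n = 3), a difference smaller than the spread (exact permutation test, two-sided, p = 0.5; the design allows no p below 0.1).

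In sperm the listed share of the 5p arm was 100%, on only 19, 41 and 25 reads. As listed, it was 20.4 percentage points above MII oocytes and 23.9 above PN embryos (exact permutation p = 0.1 for each, the smallest possible). Had each listed 0 stood for 5 reads, the share would have been 79.2%, 89.1% and 83.3%. On that reading the difference was 4.28 points from MII oocytes, which sperm overlapped (exact permutation p = 0.5), and 7.79 points from PN embryos, above which sperm still lay (exact permutation p = 0.1). The size of the difference thus depends on how many reads a listed 0 stands for.

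**Figure D3:**
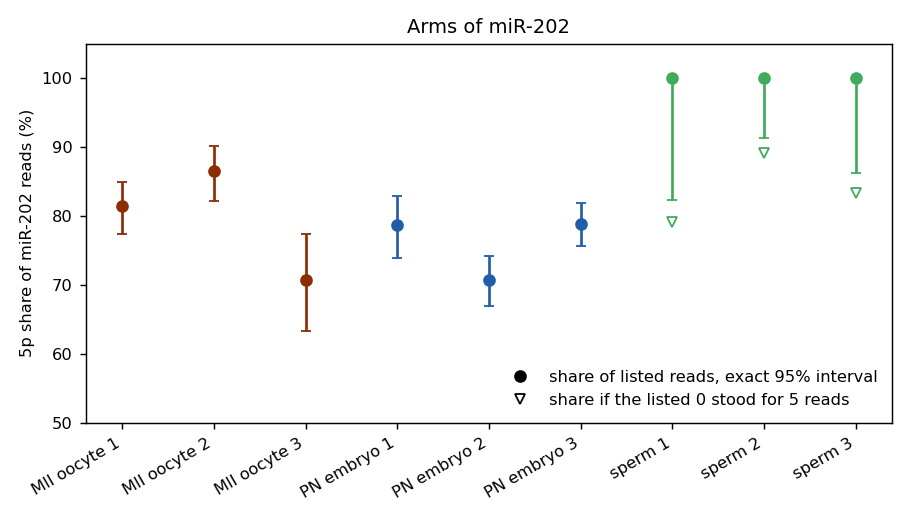
Share of miR-202 reads from the 5p arm (vertical axis, percent, from 50) in each library, with exact 95% intervals. Open triangles give the sperm share if the listed 0 of the 3p arm stood for 5 reads, 79.2% to 89.1%, which overlaps the MII oocyte values of 70.8% to 86.6%.

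miR-224, which transforming growth factor beta induces in granulosa cells, was scarce. ssc-miR-224_R+1 had 15, 11 and 11 reads in MII oocytes, 28, 46 and 41 in PN embryos and 0, 5 and 0 in sperm. These are 39.3, 36.8 and 38.0 CPM in oocytes and 66.3, 66.2 and 53.2 CPM in embryos. Every PN embryo library was above every MII oocyte library, and every sperm library was at or under 5 reads. Counting error alone was wide, with exact 95% intervals from 18.4 to 65.8 CPM in MII oocyte library 2 and from 38.2 to 72.1 CPM in PN embryo library 3. Set against 5 reads per library, sperm was at least 14.3-fold below MII oocytes and at least 23.3-fold below PN embryos. The fit with zeros as listed gave edgeR q = 1.25e-04 and 2.93e-05. With the members' zeros set to 5 reads, the log2 fold changes were -3.72 and -4.35 (edgeR q = 3.17e-06 and 3.96e-07). Every sperm library then held 5 reads, so these q values rest on counts without spread and add no support. The name passed the filter level in 0 sperm libraries, which limits what either fit adds.

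The gene of miR-452 lies 972 bases from MIR224 within the same GABRE span. Its names were nearly absent. ssc-miR-452_R+2 had 10 reads in MII oocyte library 3, ocu-miR-452-3p_1ss10TA had 5 reads in MII oocyte library 1, and both were listed at 0 in all other libraries.

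miR-143 and miR-145 are cut from one shared transcript and are best known from smooth muscle and stromal cells. In follicles, miR-143 has been linked to pregranulosa and granulosa cells and miR-145 to activin signalling in granulosa cells. ssc-miR-143-3p_R+1 had 70.7, 104 and 93.4 CPM in oocytes, 63.9, 61.8 and 53.2 CPM in embryos and 29.9, 35.2 and 32.6 CPM in sperm. The 3 groups did not overlap, with the order MII oocytes, PN embryos, sperm from high to low. The reads were few, from 27 to 31 per MII oocyte library, from 27 to 43 per PN embryo library and from 49 to 80 per sperm library.

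ssc-miR-145-5p_R-1 was the rarest member in eggs and embryos, with 6, 0 and 5 reads in MII oocytes, 8, 14 and 11 in PN embryos and 0, 5 and 0 in sperm. As CPM these are 15.7, 0 and 17.3 in MII oocytes, 18.9, 20.1 and 14.3 in PN embryos and 0, 2.88 and 0 in sperm. MII oocytes overlapped both other groups. Set against 5 reads per library, PN embryos were at least 6.69-fold above sperm. For MII oocytes no fold is given, since 2 of their 3 libraries were at or under 5 reads.

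The ratio of the 2 miRNAs of the shared transcript was chosen after the values were seen and was not tested. In PN embryos there were 3.38, 3.07 and 3.73 reads of ssc-miR-143-3p_R+1 for each read of ssc-miR-145-5p_R-1. In MII oocytes the ratio was 4.50 and 5.40 in libraries 1 and 3 and at least 6.20 in library 2. In sperm it was 12.2 in library 2 and at least 9.80 and 16.0 in libraries 1 and 3. Every sperm library, at its value or lower bound, lay above every PN embryo library. Against MII oocytes the order cannot be given, since the ratio of MII oocyte library 2 has no upper limit. The sperm ratio rested on 5 reads of ssc-miR-145-5p_R-1 in 1 library.

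miR-383 acts in granulosa cells on estradiol release and is also expressed in the testis. cfa-miR-383 had 35, 23 and 32 reads in MII oocytes, 44, 91 and 92 in PN embryos and 1199, 1106 and 1689 in sperm. That is 91.7, 76.9 and 111 CPM, 104, 131 and 119 CPM and 731, 638 and 688 CPM. MII oocytes and PN embryos overlapped, and every sperm library was far above both. Its rank by mean CPM was 212 in MII oocytes, 215 in PN embryos and 107 in sperm, so it was not among the leading miRNAs of any group.

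PN embryos were compared with MII oocytes to ask which levels differed after fertilization. Of the 6 names, 0 were called by edgeR, where 12.9% of all names tested were called (11.2% higher and 1.70% lower in embryos). DESeq2 also called 0 of them, where it called 14.7% of all names. At an unadjusted p under 0.05 there was 1 of 6, by either tool, against 35.6% of all names by edgeR. This name was ssc-miR-143-3p_R+1, at 59.6 ± 5.69 CPM in embryos and 89.2 ± 16.8 CPM in oocytes (SD, n = 3). The fitted log2 difference was -0.65 ± 0.23 (SE), with a 95% interval from -1.17 to -0.13 (edgeR q = 0.0712). It lay lower in 3 of 3 PN embryo libraries and failed the correction.

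The libraries of PN embryos and MII oocytes did not overlap for 2 of 6 names, ssc-miR-143-3p_R+1 and ssc-miR-224_R+1, against 39.5% of all names. ssc-miR-224_R+1 was at 61.9 ± 7.52 CPM in embryos and 38.0 ± 1.27 CPM in oocytes (SD, n = 3). The fitted log2 difference was 0.62 ± 0.57 (SE), with a wide 95% interval from -0.65 to 1.90 (edgeR q = 0.514). With only these groups fitted, so that the listed zeros of sperm did not enter, q was 0.201.

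The ratio of these names within a library, which needs no normalization, is given as a description. The pair was chosen because the names lay on opposite sides, so their ratio had to separate PN embryos from MII oocytes, and it was not tested. ssc-miR-224_R+1 had 0.556, 0.355 and 0.407 reads for each read of ssc-miR-143-3p_R+1 in MII oocytes and 1.04, 1.07 and 1.00 in PN embryos. Sperm reached at most 0.102 with a listed 0 taken as 5 reads.

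**Figure D4:**
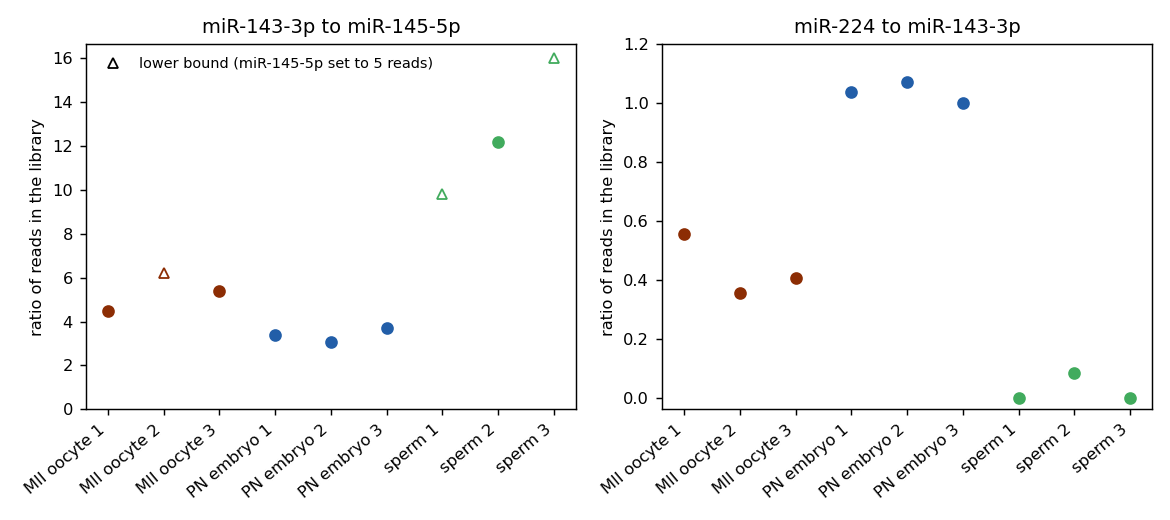
Ratios of reads within each library (vertical axes, from about 0), with miR-143-3p to miR-145-5p on the left and miR-224 to miR-143-3p on the right; open triangles are lower bounds. In the left panel sperm, at 9.80 to 16.0, lies above PN embryos, and PN embryos are highest in the right panel, at 1.00 to 1.07.

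For the other 4 names the intervals of the difference between PN embryos and MII oocytes all held 0. The log2 fold change of ssc-miR-202-5p was -0.26, with a 95% interval from -0.84 to 0.32. For ssc-miR-202-3p_R+1 it was 0.18, from -0.36 to 0.71, and for cfa-miR-383 it was 0.29, from -0.08 to 0.67 (edgeR q = 0.558, 0.686 and 0.267). Changes of 2-fold in either direction lay outside these 3 intervals. For ssc-miR-145-5p_R-1 the interval from -1.83 to 3.01 set no useful limit (edgeR q = 0.811).

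Some other cell type markers also differed between these groups. The red blood cell miRNAs miR-144, miR-451 and miR-486 were all listed in every library of both, and summed to between 166 and 254 CPM in oocytes and between 788 and 822 CPM in embryos. The muscle miRNAs miR-1 and miR-133a summed to between 96.8 and 246 CPM in oocytes and were at 0 in PN embryos, while miR-206 was at 0 in both. Endothelial miR-126 was listed at 0 in MII oocytes and at 7.19 to 23.7 CPM in embryos. Since 5 reads in an MII oocyte library would be 13.1 to 17.3 CPM, no difference can be read for it. The white blood cell miRNAs (miR-142, miR-150, miR-223) overlapped. They summed to between 0 and 60.2 CPM in oocytes, with miR-223 at 0, and between 47.3 and 53.2 CPM in embryos, with miR-150 at 0. Liver miR-122 was at 879 to 980 CPM in oocytes and 201 to 246 CPM in embryos. Neural miR-9 and miR-124 summed to between 522 and 901 CPM in oocytes and between 278 and 351 CPM in embryos. Their part in the values of ssc-miR-143-3p_R+1 and ssc-miR-224_R+1 was not tested.

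Sperm was compared with MII oocytes and with PN embryos to find what set the gametes and the embryo apart, and both comparisons share the sperm libraries. Against MII oocytes 6 of 6 names were called, 5 lower and 1 higher in sperm. Against PN embryos 5 of 6 were called, 4 lower and 1 higher. These counts have to be read beside all names, of which 83.0% and 86.2% were called. Lower in sperm were 40.7% and 47.4% of all names, and higher were 42.2% and 38.8%. At q under 0.05 alone, 6 of 6 members passed in both comparisons, beside 88.9% and 92.2% of all names. In some alternatives ssc-miR-143-3p_R+1 did not pass against PN embryos, and ssc-miR-145-5p_R-1 did not pass against either group. The libraries did not overlap for 5 of 6 members against MII oocytes and 6 of 6 against PN embryos, where 81.6% and 92.2% of all names did not. The median log2 fold change of the members was -4.29 against MII oocytes and -4.66 against PN embryos, beside medians over all names of 0 and -0.52. These medians rest on names fitted with sperm libraries listed at 0. They were -3.12 and -3.45 with the members' zeros set to 5 reads, and -6.06 and -6.21 without sperm library 2, so they are given as a description only.

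**Figure D5:**
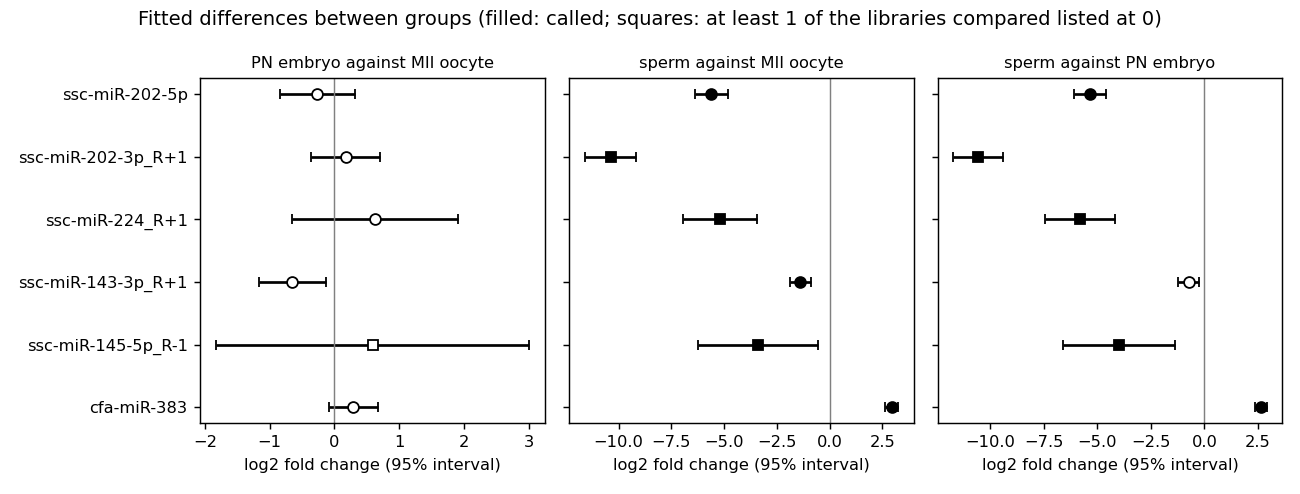
Fitted log2 fold change (horizontal axes) of each name in the 3 comparisons, with 95% intervals; filled symbols are called, and squares mark values fitted with at least 1 library listed at 0, which depend on the small count added by the fit. Intervals of 5 names hold 0 in PN embryos against MII oocytes, and cfa-miR-383 is the only name to the right of 0 in both sperm panels.

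The member measured best in sperm was cfa-miR-383, at 686 ± 46.5 CPM against 93.1 ± 16.9 CPM in oocytes and 118 ± 13.4 CPM in embryos (SD, n = 3). This gave a log2 fold change of 2.94 ± 0.14 (SE) against MII oocytes and 2.65 ± 0.12 (SE) against PN embryos (edgeR q = 1.05e-08 and 5.71e-09). ssc-miR-202-5p lay on the other side, with log2 fold changes of -5.60 ± 0.35 and -5.34 ± 0.34 (SE, edgeR q = 9.93e-08 and 1.22e-07). It passed the filter level in only 1 sperm library, which limits what these q values add. It was still present, at 10.2 to 23.7 CPM in all 3 sperm libraries, above the level of 5 reads in each.

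ssc-miR-143-3p_R+1 was the member closest to even. Sperm held 32.5 ± 2.66 CPM of it (SD, n = 3). Against MII oocytes this was a log2 fold change of -1.38 ± 0.23 (SE; edgeR q = 2.26e-04). Against PN embryos it was -0.73 ± 0.22 (SE; edgeR q = 0.00861). Its q rose to 0.0942 without sperm library 1, to 0.0678 and 0.0508 without PN embryo library 1 or 3, and to 0.0779 with no filter on low counts. The main value was short of the fold threshold, and of the alternatives that kept that threshold, only the fit with all libraries thinned to equal depth called it (log2 fold change -1.76, beside a median of -1.12 over all names in that fit). ssc-miR-145-5p_R-1 was lower in sperm than in MII oocytes and PN embryos by the fit (edgeR q = 0.0282 and 0.00781), on 11, 33 and 5 reads in all for MII oocytes, PN embryos and sperm. It passed the filter level in 0 sperm libraries, which limits what these q values add. The call against MII oocytes was lost in 7 of 17 alternatives. Without MII oocyte library 1 its q was 0.122, without MII oocyte library 3 it was 0.112, and without sperm library 1 or 3 it was 0.102 and 0.0822. It was also lost without PN embryo library 1 or 2 (q = 0.0563 and 0.0508).

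A list of 13 other miRNAs of granulosa and cumulus cells was read, with the levels of all names and arms of one miRNA summed. In MII oocytes all 13 were listed, in PN embryos 12, with miR-127 at 0, and in sperm 12, with miR-503 at 0. They summed to between 106586 and 114189 CPM in oocytes, between 116905 and 119123 CPM in embryos and between 41049 and 41503 CPM in sperm, most of it miR-21. For the calls, only names that differed in species prefix or variant mark were summed, and the list gave 17 such arm totals. Names with and without an arm mark stayed apart, so 1 arm can stand in more than 1 total. In PN embryos against MII oocytes 1 was called higher and 1 lower, where 8.25% of all arm totals were called, 6.19% higher and 2.06% lower. The higher was miR-132-5p (log2 fold change 2.09 ± 0.51 SE, edgeR q = 0.0184). miR-132, known to be induced by gonadotropins in granulosa cells, also had a total without an arm mark. That total was not called (log2 fold change 0.36 ± 0.09 SE, edgeR q = 0.0243). The lower was miR-127, at 29.3 ± 15.5 CPM in oocytes (SD, n = 3) and listed at 0 in PN embryos (edgeR q = 0.0303). Its fitted log2 fold change of -7.79 ± 2.00 (SE) rests on those zeros, and 5 reads in a PN embryo library would be 6.49 to 11.8 CPM.

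In sperm against MII oocytes 7 of the 17 arm totals were higher and 9 lower, where 82.9% of all arm totals were called, 39.8% higher and 43.1% lower. Against PN embryos 4 were higher and 7 lower, where 83.1% were called, 37.7% higher and 45.4% lower. The list thus held miRNAs on both sides, as the 6 names did. Part of this tally can depend on naming. Against MII oocytes, miR-181a was among the higher (log2 fold change 1.47) and miR-181a-5p among the lower (-7.00), and both names may stand for the same arm. miR-31 was at 2972 ± 61.8 CPM in oocytes, 4700 ± 176 CPM in embryos and 11.6 ± 1.11 CPM in sperm (SD, n = 3). miR-22 had the reverse order, at 1568 ± 85.0, 1371 ± 86.8 and 8377 ± 188 CPM.

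For the most abundant name of each miRNA, the names with the most similar levels were sought by Pearson r of log2(CPM + 1) over the 9 libraries. The order was miR-202, miR-224, miR-383, miR-143 and miR-145. Names of the same miRNA, and names whose counts had already been given for an earlier miRNA, were left out. The libraries fall into 3 groups, which sets most of r, so these values are descriptions. Closest to ssc-miR-202-5p was ssc-miR-193a-5p (r = 0.992), at 716 ± 101, 720 ± 25.0 and 34.1 ± 5.14 CPM in oocytes, embryos and sperm (SD, n = 3). Closest to ssc-miR-224_R+1 was ssc-miR-574-5p_R-2 (r = 0.994), at 414 ± 15.5, 460 ± 48.0 and 1.54 ± 2.66 CPM.

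Closest to cfa-miR-383 was cfa-miR-449a (r = 0.998), a miRNA of male germ cells and ciliated cells, followed by ssc-miR-342_R-2 (r = 0.995). cfa-miR-449a was far more abundant in sperm, at 17482 ± 110 CPM, and ssc-miR-342_R-2 was at 2585 ± 188 CPM (SD, n = 3). Closest to ssc-miR-143-3p_R+1 was ssc-miR-148a-5p (r = 0.957), at 193 ± 23.4, 102 ± 16.9 and 11.4 ± 2.09 CPM, and then ssc-miR-140-5p_L+1 (r = 0.953). Both fell in the same order of groups as ssc-miR-143-3p_R+1 by their means. The second names for the first 2 miRNAs were efu-mir-9226-p3_1ss17GA (r = 0.991) and eca-miR-506a_R-2_1ss9AG (r = 0.984). For ssc-miR-145-5p_R-1 the closest were the predicted small RNAs PC-5p-20628_176 and PC-3p-67052_46 (r = 0.966 and 0.955).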

How the data were processed

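Small RNA libraries were prepared from total RNA by ligation of adapters to both ends, reverse transcription, PCR and gel selection. The values the authors deposited were estimated counts of reads per small RNA name, marked raw in the file headers and not normalized, with 19.8% of values above 0 not whole. All 54 values of the members were whole. The submitters' notes named the build Sscrofa11.1, and the aligner, the miRNA caller and the count filter are not given in the sources used here. No mature miRNA sequence was used here.

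Groups and replicate numbers came from the sample titles, and columns were matched through the library names. Rows of one name were summed. The table held 1420 rows, and 105 names stood on more than 1 row, so library totals can hold some reads more than once. With repeated names counted once, the log2 fold change of cfa-miR-383 in sperm against MII oocytes was 2.68, beside 2.94 in the main fit. Counts were rounded and fitted over all 9 libraries with edgeR 4.0.16 in R 4.3.3 (TMM, filterByExpr with a minimum count of 10, quasi-likelihood F test, Benjamini-Hochberg within each contrast). Standard errors were derived from each F statistic. Replicate libraries differed by more than sampling noise (chi-square per degree of freedom from 2.20 to 12.7) and were counted separately. Shares of the miR-202 arms were compared with two-sided exact permutation tests in SciPy 1.17.1. Replicate numbers were not used to pair the libraries in the main fit. Scripts were tested on simulated data.

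Alternatives were DESeq2 1.42.0 (size factors and the Wald test), library totals, other filters, fits of the compared groups alone, a replicate block, repeated names counted once, isomiR rows summed, equal depth, another call rule and leaving out each library. Members' zeros set to 5 reads and the removal of miR-205 names were added after the data were seen. The names reported are the 6 members, the 2 names most like the most abundant name of each miRNA (mean of at least 10 CPM, no name repeated between miRNAs), and names from fixed marker lists. miR-452 was added after its values were seen. The members and lists were chosen with earlier results of these data known. The liver (miR-122) and neural (miR-9, miR-124) lists were also read: miR-122 was at 914, 229 and 2047 CPM, miR-9 at 716, 307 and 9383 CPM and miR-124 at 53.2, 0 and 11.0 CPM on average in MII oocytes, PN embryos and sperm.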

Additional observations from a re-analysis of the deposited data

How the results depend on the processing

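The number of members called did not move by more than 1.5 times under any alternative. In PN embryos against MII oocytes it was 0 throughout, in sperm against MII oocytes 5 or 6 and in sperm against PN embryos 4 or 5, or 6 at q under 0.05 alone. The share of all names called was 7.01% to 14.7%, 49.8% to 84.8% and 57.2% to 87.6% in the same order. The share of arm totals called in their main fit lay within these ranges. At q under 0.05 alone the share of all names was 25.2%, 88.9% and 92.2%. ssc-miR-145-5p_R-1 was left untested with at least 10 counts in 3 libraries, at equal depth, and in 2 of the contrasts with only their own groups fitted. Over the 18 log2 fold changes of the members, 13 kept direction and call under all alternatives run for them, and of 352 values 8 became weaker, 1 stronger and 2 reversed. The reversed values were those of PN embryos against MII oocytes for ssc-miR-202-5p, 0.0806 without MII oocyte library 1 (range -0.543 to 0.0806 over the fits without 1 library), and for ssc-miR-202-3p_R+1, -0.0303 without PN embryo library 2 (-0.0303 to 0.499). In the table of arm totals the same fits gave 0.0427 and -0.00832 (ranges -0.415 to 0.0427 and -0.00832 to 0.469). The causes were not tested.

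Same-numbered libraries did not deviate together (correlations from -0.211 to 0.0273). These correlations cannot show whether such libraries shared a collection or a run, which the sources used here do not say. With the replicate block, 0, 5 and 4 members were called in the order above, beside 8.52%, 76.0% and 80.7% of all names. The calls lost were those of ssc-miR-145-5p_R-1 in sperm (q = 0.118 against MII oocytes and 0.0638 against PN embryos). At equal depth the log2 fold changes of all names had a median of -0.69 in sperm against MII oocytes and -1.12 against PN embryos, and that of cfa-miR-383 was 2.41 and 2.25. With MII oocyte library 3 left out, the log2 fold change of ssc-miR-202-5p in PN embryos against MII oocytes was -0.54 (edgeR q = 0.0411), short of the fold threshold. Few reads limit ssc-miR-224_R+1 and ssc-miR-145-5p_R-1 most.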
